A study of Mus musculus with 12 samples.

Results

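Transcripts with a listed length of 100 or less were followed through RNA-seq and ribosome profiling of fibroblasts taken from mouse embryos, cells of the connective tissue. Each deposited table gives a length for a transcript ID, in a unit that is not stated, and 2063 of 63759 IDs had a value of 100 or less. Members were the 695 of these IDs that held 10 or more counts in all 12 libraries. IDs in nearby rows whose counts were nearly identical in every library were joined, and the ID with the most counts stood for each joined set. This left 570 read-sharing groups, called short groups below. They were set against 15688 groups of listed length above 100 and under 3000 chosen by the same minimum.

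All cells were wild-type C57BL/6, grown to confluence and synchronised with Dex. One arm was kept at 35 °C and the other was warmed for 2 h at 38.5 °C from 24 h after Dex onward, a step the labels call WTS. Each arm was measured by RNA-seq and by ribosome profiling in 3 replicate numbers, which gave 4 groups of 3 libraries. The labels give no harvest time for the arm kept at 35 °C, so warming and a difference in time after Dex cannot be told apart. The IDs matched no gene in the name tables at hand (0 matches), so no ID was given a gene name and the fibroblast identity could not be checked against markers.

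Ribosome profiling sequences the stretches of mRNA that ribosomes cover, called footprints, and RNA-seq of the same cells measures how much of each transcript is present. The ratio of footprints to RNA is used as a measure of how densely ribosomes cover a transcript, and is often called translational efficiency. It is not a count of ribosomes per transcript. On a short reading frame the ribosomes that start and those that stop make up a larger part of all ribosomes than on a long one. Short coding sequences include those of many ribosomal proteins, respiratory chain subunits and small secreted or membrane peptides. None of the IDs could be assigned to these classes.

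Total counts ran from 8686742 to 12212227 in RNA libraries and from 8449802 to 82560281 in footprint libraries. The footprint libraries of number 1 were the deepest, with 23393113 counts at 35 °C and 82560281 in warmed cells. Those of numbers 2 and 3 held 8449802 to 13987481. In RNA and in footprints, number 1 was unlike the other replicate numbers. Any part of depth in this was not tested. At 35 °C the footprint level of a short group in number 1 differed from the mean of the others by a median of -0.54 (log2). Of 570 short groups, 139 (24.4%) differed by over 2-fold. Longer groups were much alike in this quantity, with a median of -0.56 and 3549 of 15688 (22.6%) over 2-fold. In footprints of warmed cells the shares over 2-fold were 26.0% of short and 17.8% of longer groups. In the ratio of footprints to RNA they were 19.1% and 12.6% at 35 °C, and 24.7% and 14.7% in warmed cells. Numbers 2 and 3 differed by over 2-fold in footprints at 35 °C in 1 short group (0.175%) and in 0.414% of longer groups. For this reason ratios and changes are given for each number. Fewer cells of a type and less RNA per cell cannot be told apart in these bulk libraries.

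Short IDs passed the count minimum less often than longer ones, at 33.7% against 52.7% of 44188 IDs. Of the short IDs that did not pass, 550 held no count in any library and 818 held some. The latter comprised 57 IDs below the minimum in footprint libraries alone, 121 in RNA libraries alone and 640 in both. Most short groups lay near the limit of 100. There were 22 groups of listed length 16 to 50, 158 of 51 to 75 and 390 of 76 to 100, with a median of 83. A single ID made up 491 groups, and 17 groups also held a longer ID. The lowest RNA count of a short group over the 6 RNA libraries had a median of 46, and 301 groups had fewer than 50 counts in some RNA library. The corresponding median in footprints was 68, with 223 groups under 50 counts.

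Short groups took up a larger share of footprints than of RNA. Their share of RNA counts at 35 °C was 0.981%, 1.24% and 1.33% in numbers 1, 2 and 3 (1.18% ± 0.182, SD, n = 3). Their share of footprint counts was 1.35%, 1.69% and 1.73% (1.59% ± 0.207, SD, n = 3). The footprint share exceeded the RNA share within every number, by 1.38, 1.36 and 1.30 times. The widest 95% Wilson interval of these shares reached 0.00872 percentage points to a side and covers counting error only. In warmed cells the shares were 1.24% ± 0.154 in RNA and 1.58% ± 0.238 in footprints (SD, n = 3), and the footprint share was 1.23, 1.29 and 1.30 times the RNA share. A few members held a large part of the footprint counts. The 10 groups with the most footprint counts at 35 °C held 33.5% to 34.6% of the footprint counts of short groups in that treatment, and 13.4% to 15.0% of their RNA counts. They were picked by footprint counts, so their larger share of footprints than of RNA follows in part from the choice.

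Levels per 100 units of listed length were higher in short than in longer groups in both assays. The median RNA level at 35 °C was 8.20 ± 0.879 CPM (counts scaled to the same library total) per 100 units in short groups and 3.07 ± 0.0954 in longer ones (SD, n = 3). The median footprint level was 10.2 ± 1.95 CPM per 100 units in short groups and 2.23 ± 0.478 in longer ones (SD, n = 3). A fixed count minimum asks for a higher level per length from a shorter ID, so these levels were partly set by how the members were chosen. Among the short groups, mean levels at 35 °C spanned 1.28 to 644 CPM per 100 units in RNA and 1.12 to 1969 in footprints.

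The ratio of footprint CPM to RNA CPM was higher in short groups. Its median over the short groups at 35 °C was 0.05, 0.50 and 0.42 on the log2 scale in numbers 1, 2 and 3 (0.32 ± 0.24, SD, n = 3). Over the longer groups it was -0.69, -0.24 and -0.21 (-0.38 ± 0.27, SD, n = 3). Number 1 was the lowest in both sets. The difference between the sets was nearly the same in every number, at 0.74, 0.73 and 0.63 (0.70 ± 0.06, SD, n = 3), or 1.62-fold. In warmed cells it was 0.62, 0.59 and 0.63 (0.61 ± 0.02, SD, n = 3), or 1.53-fold. These SDs are over replicate numbers that measure the same transcripts, and they do not measure the spread between transcripts. At 35 °C that spread (SD over groups) was 1.05 in short and 0.93 in longer groups. Length sets are not randomised groups of samples, so these values are given without a test.

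The median ratio was lower in each longer length class, as the plot of the ratio by listed length shows. At 35 °C the mean of the 3 numbers was 0.68 for lengths 16 to 50, 0.37 for 51 to 75 and 0.28 for 76 to 100. In the classes above 100 it was 0.03 up to 150, -0.03 up to 200, -0.23 up to 400, -0.52 up to 1000 and -0.87 for the class under 3000. Within the short groups the ratio followed length only weakly, with Spearman's rho of -0.05, -0.05 and -0.02 over 570 groups in the 3 numbers. Over the 15688 longer groups rho was -0.31, -0.27 and -0.24. These correlations are across transcripts that share libraries and depth, and transcripts are not independent replicates. Just inside the limit, the 97 groups of length 96 to 100 had a median ratio of 0.38 at 35 °C and 0.29 in warmed cells. Just outside it, the 111 groups in the next 5 units of length had -0.02 and -0.07.

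**Figure D1:**
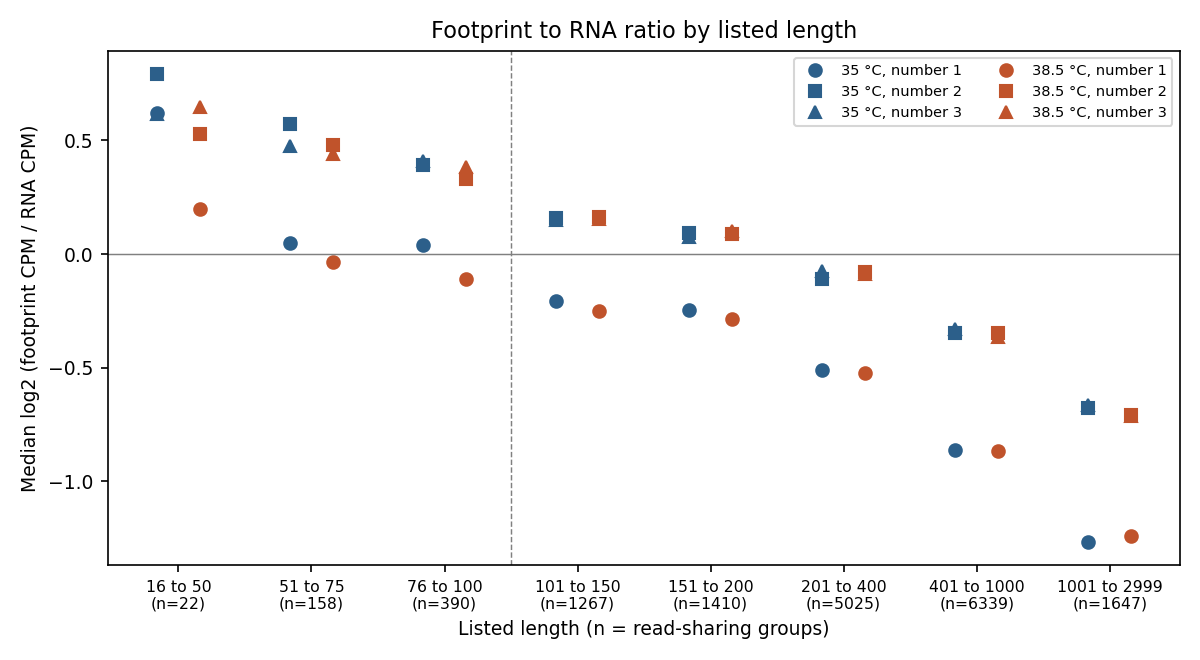
Median log2 ratio of footprint CPM to RNA CPM (y axis) by listed length class (x axis, with the number of read-sharing groups), for each replicate number at 35 °C and 38.5 °C. The dashed line marks the length limit of 100. The medians step down from the shortest to the longest class in every number, and number 1 lies below numbers 2 and 3 in each class except the shortest at 35 °C, where it meets number 3 at 0.62.

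The difference between short and longer groups was largest at middle levels and smaller at both ends, with its lowest value at the lowest level. With groups binned by their mean log2 level over both assays, in bins chosen after the data were seen, it was 0.17 in the lowest bin (40 short groups) at 35 °C. In the next bins it was 0.55, 0.72, 1.11 and 0.88, and in the highest bin 0.54 (79 short groups). It was above 0 in every bin, number and treatment, and its lowest value was 0.02, in warmed cells of number 1 in the lowest bin.

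Short groups differed widely among themselves. The SD of the ratio over short groups at 35 °C was 1.05 on the log2 scale, against 0.93 over longer groups. A ratio above 1, meaning over 2-fold more footprint than RNA CPM, was seen in all 3 numbers in 88 short groups (15.4%) and in 507 longer groups (3.23%). A ratio below -1 in all 3 numbers was seen in 28 short groups (4.91%) and in 2445 longer groups (15.6%). The order of short groups was stable between treatments, with Pearson's r of 0.90, 0.91 and 0.93 between 35 °C and 38.5 °C in numbers 1, 2 and 3. It was less stable between numbers at 35 °C, with r of 0.81 and 0.80 for number 1 against 2 and 3, and 0.91 for 2 against 3.

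**Figure D2:**
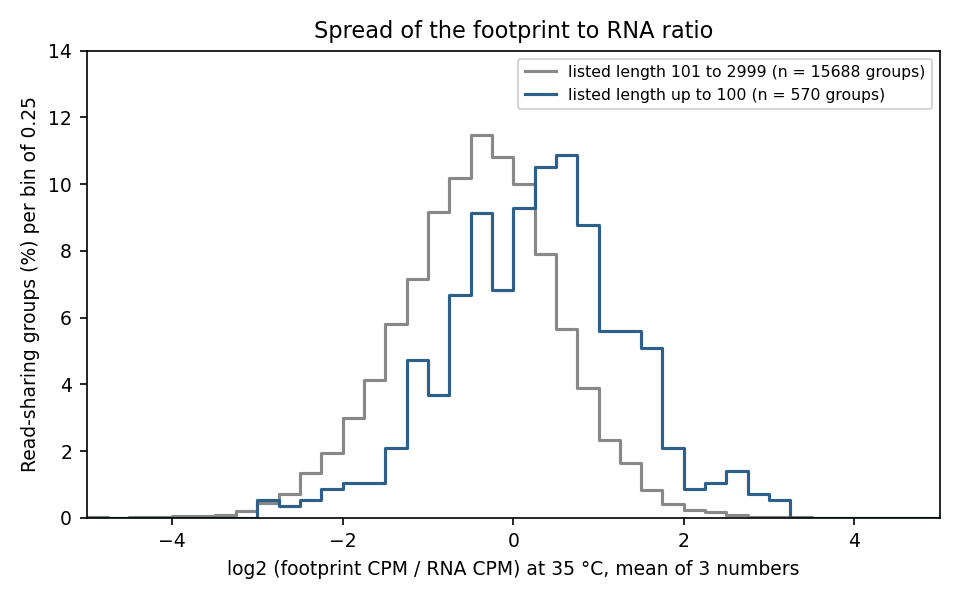
Share of read-sharing groups (y axis, percent per bin of 0.25) by log2 ratio of footprint to RNA CPM at 35 °C, as the mean of 3 replicate numbers (x axis). The 570 short groups lie to the right of the 15688 longer groups. The sets overlap over most of their range, both reach past 2, and the longer groups extend further on both sides.

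The IDs with most footprints per length were uc008qdb.1, uc009eml.1 and uc009uwx.1. uc008qdb.1 (listed length 80) had 390, 547 and 609 CPM in RNA and 991, 1817 and 1918 CPM in footprints at 35 °C. Its footprint level was 1969 ± 636 CPM per 100 units (SD, n = 3), and its ratio was 1.58 ± 0.20. In warmed cells the ratio was 0.62, 1.58 and 1.60, so the low value of number 1 stands alone. uc009eml.1 (listed length 95) had 513, 346 and 346 CPM in RNA and 1299, 1075 and 1013 CPM in footprints at 35 °C. Here number 1 was the highest in both assays, and the ratio was 1.51 ± 0.15 (SD, n = 3). uc009uwx.1 (listed length 35) had 98.2, 105 and 194 CPM in RNA and 313, 417 and 432 CPM in footprints at 35 °C. Its RNA in number 3 was nearly 2-fold that in number 2, and its ratio of 1.61 ± 0.42 (SD, n = 3) varied accordingly.

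The IDs with the highest ratios, uc007dli.2 and uc007icu.1, had few RNA counts. uc007dli.2 (listed length 93) had log2 ratios of 3.01, 3.47 and 3.03 at 35 °C (3.17 ± 0.26, SD, n = 3), from RNA counts of 21, 10 and 14 and footprint counts of 410, 88 and 103. uc007icu.1 (listed length 74) had 3.19, 3.45 and 2.69 (3.11 ± 0.39, SD, n = 3), from RNA counts of 18, 32 and 55. High ratios also occurred at higher counts. uc008qfj.1 (listed length 89), named after its values were seen, had 3.33, 2.96 and 2.82 (3.03 ± 0.26, SD, n = 3), from RNA counts of 306, 553 and 653. The lowest ratios belonged to uc008qbl.2 and uc033jnn.1, both of listed length 75, with -2.92 ± 0.81 and -2.88 ± 0.82 at 35 °C (SD, n = 3). uc008qbl.2 had 184, 356 and 489 CPM in RNA at 35 °C, against 46.0, 38.6 and 41.7 CPM in footprints. Their counts lay within 1.04 times of each other in every library although the IDs stand 23982 rows apart, so their reads cannot be told apart. They were nonetheless kept as separate groups among the 570 and enter every count and median as such. Such distant near-copies were uncommon. Of 149 short groups with at least 100 counts in every library, 5 had an ID over 30 rows away within 1.1 times in every library.

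**Figure D3:**
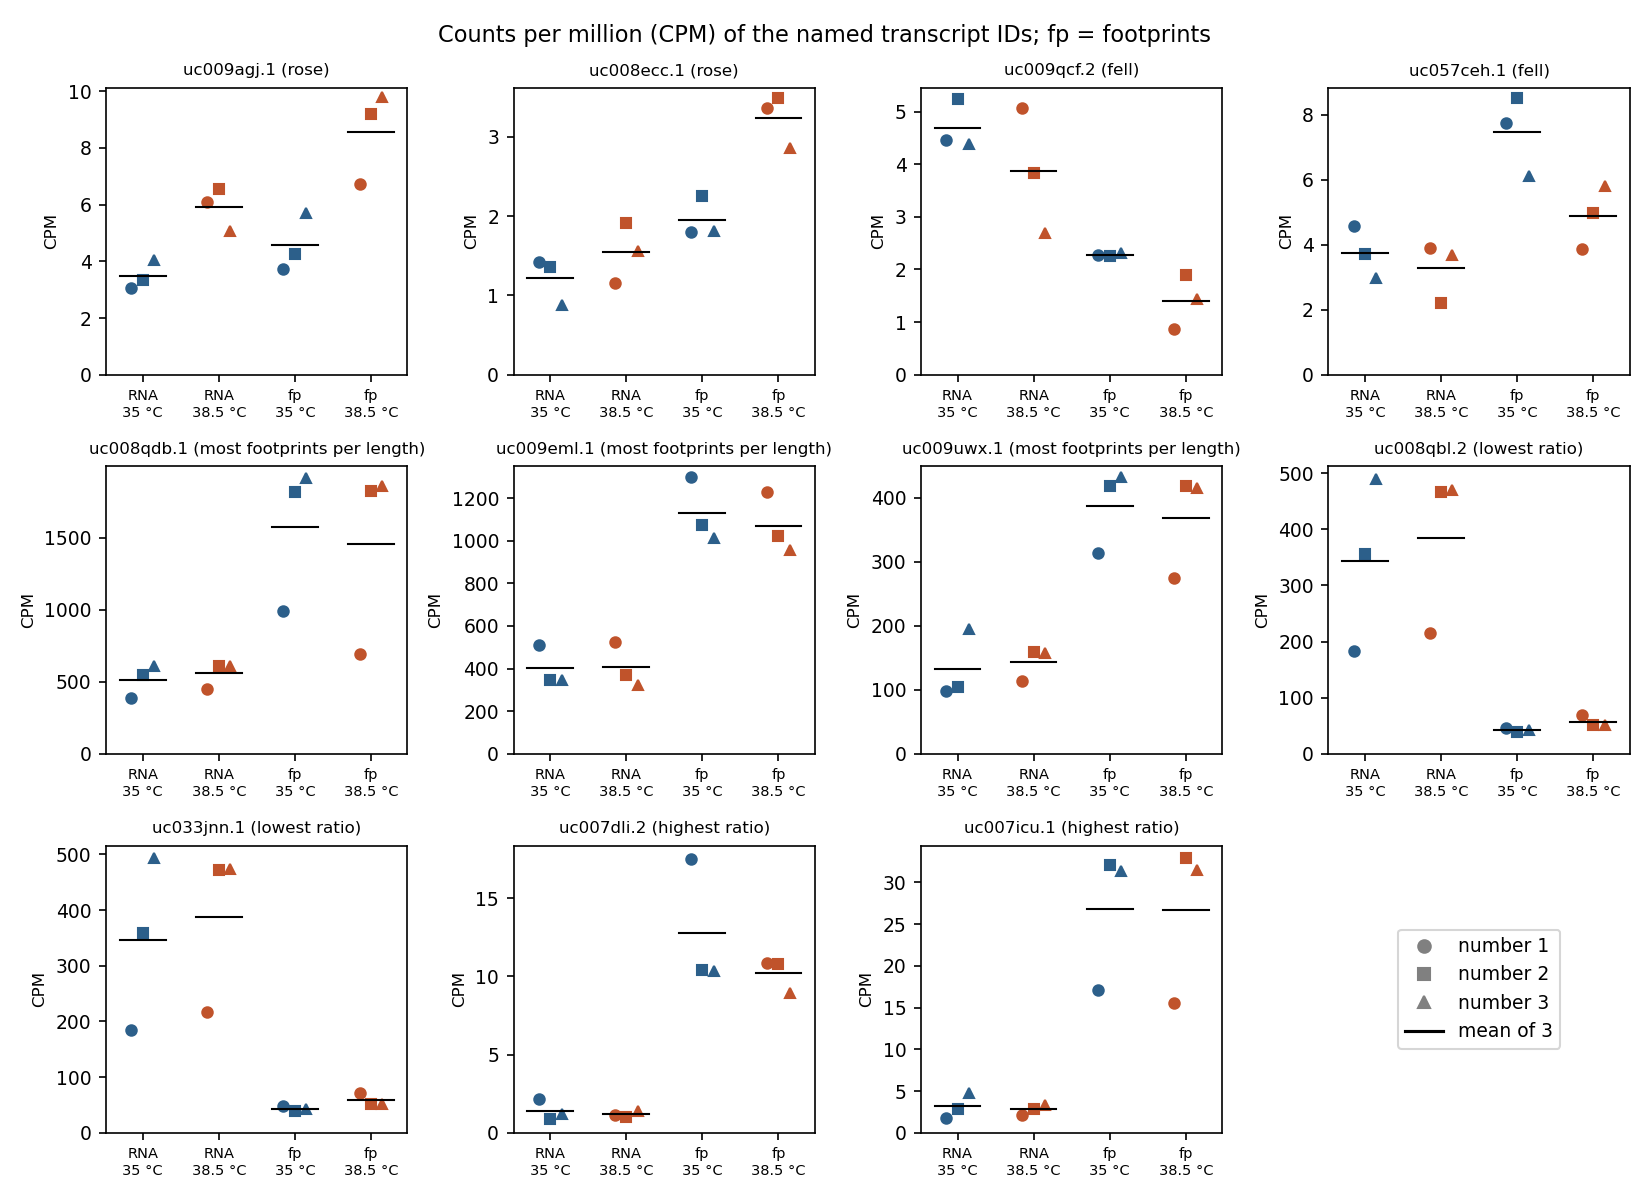
Level in CPM (y axis, from 0) of each named ID in RNA and footprint (fp) libraries at 35 °C and 38.5 °C, with 1 point per replicate number and a line at the mean of 3. The IDs with most footprints per length have higher levels in footprints than in RNA, and uc008qbl.2 and uc033jnn.1 show the opposite.

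Warming left the typical short group almost where it was. The median log2 change in RNA was 0.11, 0.06 and 0.01 in numbers 1, 2 and 3 (0.06 ± 0.05, SD, n = 3), against 0.06, -0.01 and 0.01 in longer groups. The median change in footprints lay within 0.01 of 0 in every number, against 0.07, 0.00 and -0.02 in longer groups. The median change of the ratio was -0.14, -0.05 and -0.0038 in short groups and 0.02, 0.01 and -0.03 in longer groups. The difference between the sets in this change was -0.16, -0.06 and 0.03. It took both signs, and its SD of 0.09 exceeded its mean of -0.06 (n = 3). No short group (0 of 570) changed over 2-fold in the same direction in all 3 numbers in either assay, and such changes were rare in longer groups too, at 2 higher and 4 lower of 15688 in RNA and 7 higher and 8 lower in footprints.

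The 22 groups of listed length 16 to 50 had the largest RNA medians. Their RNA change was 0.21, 0.36 and 0.25 in numbers 1, 2 and 3, their footprint change was 0.01, -0.01 and 0.15, and their ratio change was -0.25, -0.31 and -0.03. The RNA change was above 0 in all 3 numbers in 6 of the 22 groups (27.3%), against 25.9% of groups of length 51 to 75 and 21.0% of longer groups. The RNA of this class also differed between replicates of one treatment, with number 3 above number 2 by a median of 0.24 at 35 °C. The part of this replicate difference in the RNA change was not tested.

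**Figure D4:**
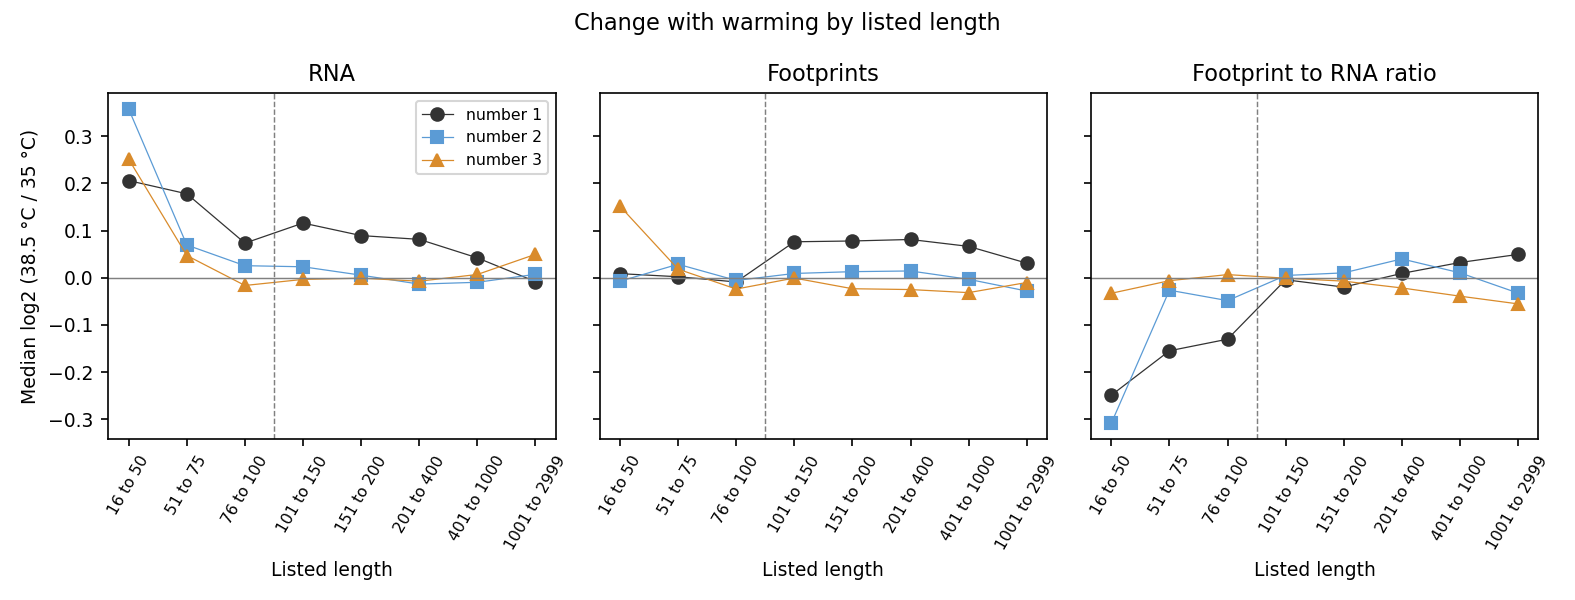
Median log2 change from 35 °C to 38.5 °C (y axis) by listed length class (x axis) in RNA, footprints and their ratio, with 1 line per replicate number and a dashed line at the length limit of 100. The RNA medians of the class of 16 to 50 are 0.21 to 0.36, and the medians of the class of 76 to 100 lie between -0.13 and 0.07 in all 3 quantities.

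Tested per transcript, no short group was called by edgeR in RNA, in footprints or in their ratio in the fit without a block. In RNA, edgeR's quasi-likelihood test called 0 of 570 short groups at an adjusted p of 0.05, against a background of 0% of 18748 groups. At an unadjusted p under 0.05 by the same test there were 10 of 570, against 768 of 18748 groups. DESeq2 called 1, against 0.117% of all groups. In footprints edgeR called 0 of 570, against 0.0108% of 18545 groups. Its unadjusted p was below 0.05 in 24 of 570, against 1174 of 18545. DESeq2 called 1, against 0.248%. In the interaction of assay and treatment, which tests the change of the ratio, edgeR called 0 of 570 against 0% of 17915 groups. There 6 of 570 had an unadjusted p below 0.05, against 169 of 17915. DESeq2 called 0, against 0%.

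The 35 °C and warmed libraries of number 1 deviated together, and the replicate number was also used as a block. No such pairing was seen for numbers 2 and 3. Over short groups in RNA, deviations of number 2 at 35 °C correlated with those of warmed numbers 2 and 3 at 0.30 and 0.35. In footprints these correlations were 0.61 and 0.60. edgeR with the block called 9 short groups in RNA, or 1.58%, against a background of 4.47%. Of the 570, 6 rose (1.05%), against 2.25% over all groups, and 3 fell (0.526%), against 2.22%. In footprints it called 26, or 4.56%, against 6.10%. By direction, 15 rose (2.63%, against 3.29% over all groups) and 11 fell (1.93%, against 2.81% over all groups). With total-count scaling in place of TMM the footprint split was 14 that rose (2.46%) and 6 that fell (1.05%), against 3.11% and 2.14% of all groups. In these fits of the 12 separate libraries the share called was lower in short groups than over all groups, and their median standard error was larger, at 0.18 against 0.14 in longer groups in RNA. For the ratio, edgeR with the block again called 0 of 570, against 0%. Here 22 of 570 had an unadjusted p below 0.05, against 437 of 17915 groups. With a block within each assay edgeR called 0 against 0%, and 38 of 570 had an unadjusted p below 0.05, against 864 of 17915.

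The set of groups called with the block varied with the choice of libraries. Without number 1, 2 or 3 the RNA calls were 3, 2 and 15, of which 3, 2 and 6 were among the 9. Over all groups the same fits called 1.28%, 2.05% and 4.14%, against 0.526%, 0.351% and 2.63% of short groups. The footprint calls were 30, 39 and 42, of which 16, 18 and 18 were among the 26. Over all groups these fits called 9.63%, 5.59% and 6.03%, against 5.26%, 6.84% and 7.37% of short groups. Which set had the larger share in footprints therefore changed with the number left out. DESeq2 with the block called 2 in RNA and 6 in footprints, against 0.613% and 1.70% of all groups.

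The called changes were moderate. Called RNA changes ran from 0.53 to 0.86 upward and from -0.45 to -0.29 downward on the log2 scale, and called footprint changes from 0.35 to 0.98 and from -0.97 to -0.29. None (0) reached 2-fold. The lowest adjusted p of a short group by edgeR with the block belonged to uc008zdp.2 (listed length 80) in both assays. Its changes were 0.86 ± 0.10 in RNA (adjusted p = 1.41e-13) and 0.82 ± 0.09 in footprints (adjusted p = 0.000105; log2, SE). It was picked after its values were seen, and edgeR without the block did not call it. In all, 30 short groups (5.26%) were called in RNA or footprints, against 8.68% of the 17915 groups tested in both assays. As shares of the 570, 4 rose in both (0.702%) and 1 fell in both (0.175%), against 1.08% and 1.08% of all groups. None (0) were called in opposite directions, against 0%. The RNA change had the same sign in 24 of the 26 footprint calls (92.3%), against 95.5% of footprint calls over all groups. The footprint calls comprised 11 that rose and 10 that fell without a call in RNA, and the RNA calls 2 and 2 without a call in footprints. The shares of such calls over all groups were not computed, so these counts say nothing particular to short groups. A call in one assay alone is no test of a difference between assays, and the interaction test called none (0). Libraries of the 2 treatments did not overlap in CPM in 7 of the 15 groups that rose (46.7%) and 5 of the 11 that fell (45.5%) in footprints, against 50.6% and 38.0% of such calls over all groups.

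**Figure D5:**
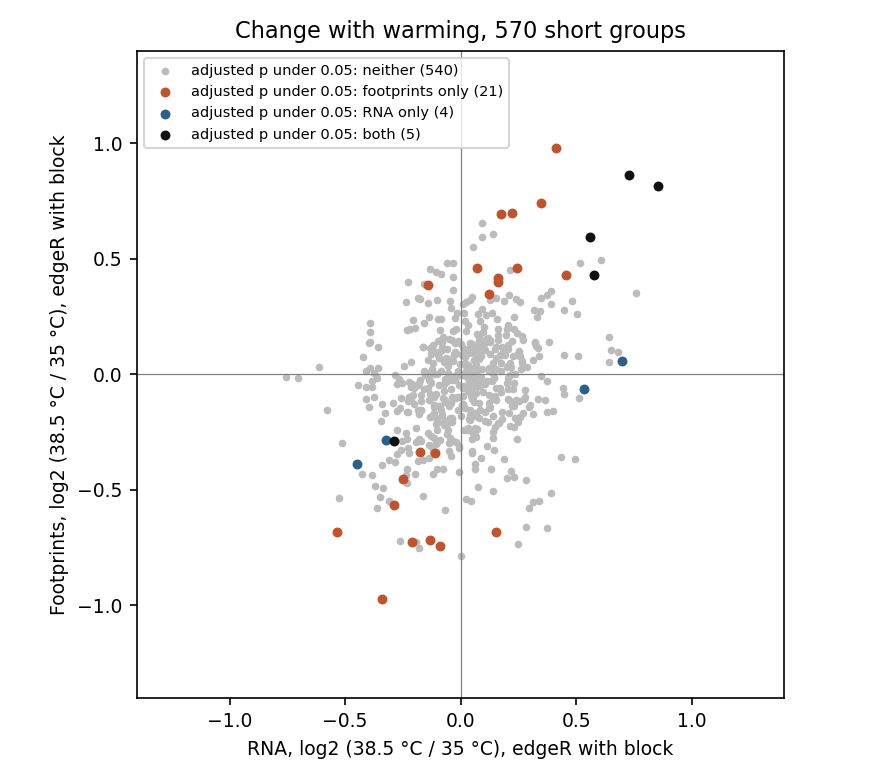
Log2 change from 35 °C to 38.5 °C in RNA (x axis) and footprints (y axis) for each of the 570 short groups, from edgeR with the replicate number as a block. Groups called in RNA, footprints or both are marked; the called changes lie between -0.97 and 0.98, and the 5 groups called in both assays lie in the quadrants of equal sign.

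The IDs with the largest footprint changes among called groups without overlap are named here. uc009agj.1 (listed length 83) had 3.72, 4.26 and 5.72 CPM in footprints at 35 °C and 6.73, 9.20 and 9.79 in warmed cells. Every warmed library lay above every library at 35 °C. The change was 0.86 ± 0.14 (log2, SE), with an adjusted p of 0.00291 by edgeR with the block and 0.394 without it. Its RNA was 3.04, 3.34 and 4.03 CPM at 35 °C and 6.10, 6.56 and 5.08 in warmed cells, a change of 0.73 ± 0.21 with an adjusted p of 0.0216 by edgeR with the block. The RNA call was lost without number 1 (adjusted p = 0.262), without number 2 (0.251), without the block and by DESeq2 with the block (0.620). The footprint call held in each of the 3 leave-outs. Its ratio changed by 0.13 ± 0.26 (SE), which is within its error.

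uc008ecc.1 (listed length 87) had 1.80, 2.25 and 1.81 CPM in footprints at 35 °C and 3.36, 3.49 and 2.86 in warmed cells. The treatments did not overlap, although the smallest count was 18. The change was 0.74 ± 0.20 (SE), with an adjusted p of 0.0379 by edgeR with the block and 0.695 without it. The call was lost without number 1 (edgeR adjusted p = 0.138) and without number 3 (0.0553). In RNA the change was 0.35 ± 0.37 (SE), from counts of 10 to 19, with an adjusted p of 0.697 with the block by edgeR.

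uc009qcf.2 (listed length 95) had 2.27, 2.25 and 2.31 CPM in footprints at 35 °C and 0.872, 1.90 and 1.43 in warmed cells. Number 1 had the lowest warmed value. The change was -0.97 ± 0.27 (SE), with an adjusted p of 0.0427 by edgeR with the block and 0.695 without it. Without number 1 the change was -0.47 and the call was lost (edgeR adjusted p = 0.380), as it was with total-count scaling (0.0518). Its RNA changed by -0.34 ± 0.22 (SE), with an adjusted p of 0.446 by edgeR with the block, and the treatments overlapped, at 4.46, 5.24 and 4.39 CPM against 5.07, 3.83 and 2.70.

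uc057ceh.1 (listed length 97, in a group that also holds a longer ID) had 7.74, 8.52 and 6.12 CPM in footprints at 35 °C and 3.86, 4.97 and 5.79 in warmed cells. The highest warmed library lay just below the lowest library at 35 °C. The change was -0.72 ± 0.18 (SE), with an adjusted p of 0.0281 by edgeR with the block and 0.695 without it. Without number 1 the change was -0.39 and the call was lost (edgeR adjusted p = 0.230), as it was by DESeq2 with the block (0.185). In RNA the change was -0.21 ± 0.24 (SE), with an adjusted p of 0.723 by edgeR with the block.

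Changes of short groups repeated poorly between replicate numbers. Pearson's r of the RNA change over the 570 groups was 0.14, 0.08 and 0.03 for the 3 pairs of numbers, against 0.29, 0.26 and 0.23 over longer groups. In footprints it was 0.18, 0.18 and 0.32, against 0.34, 0.38 and 0.43. Within a number, RNA and footprint changes of short groups had r of 0.11, 0.12 and 0.26, against 0.35, 0.34 and 0.40 in longer groups. These are descriptions over transcripts that share their libraries, and short groups had a lower median RNA level at 35 °C than longer ones, 6.66 ± 0.680 against 12.7 ± 0.538 CPM (SD, n = 3).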

How the data were processed

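The authors deposited, per library, raw counts per transcript ID with a listed length of unstated unit. Per the submitters' processing notes, CASAVA 1.8, STAR 2.7.0 and the mm10 build were used. For the counter and the annotation, nothing was given in the sources used here. Per the labels' protocols, RNA libraries used a stranded total RNA kit, and lysis buffer held cycloheximide.

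IDs within 30 rows, with a mean of at least 10 counts and counts plus 1 within 1.25 times in all 12 libraries, were joined. A read shared by IDs enters totals more than once. Ratios and changes are log2 CPM with 0.5 counts added and total-count scaling. edgeR 4.0.16 in R 4.3.3 (robust quasi-likelihood, TMM, filterByExpr) was fitted per assay for RNA and footprints, on IDs that passed the filter. The interaction was fitted on all 12 libraries together, with TMM over all of them, on IDs that passed in both assays. Benjamini-Hochberg adjustment ran over the IDs tested, with a threshold of 0.05. The fits were tried on simulated data. DESeq2 1.42.0 was an alternative. Backgrounds count 1 ID per read-sharing group.

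The use of the number as a block was taken from the data, not from the labels. Correlations of same-numbered deviations were 0.856, 0.489 and 0.619 in RNA and 0.851, 0.627 and 0.661 in footprints. They rest on number 1, since number 2 against number 3 of the other treatment gave 0.579 and 0.672, and 0.651 and 0.656. The design text calls the experiments independent without naming cultures, so p-values measure the spread between these libraries. Footprint numbers 2 and 3 differed little beyond sampling noise (mean chi-square per short group 1.10 at 35 °C and 1.51 warm) and were kept as separate samples.

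Named IDs were the 2 per direction with the largest footprint change among non-overlapping calls with the block, the 3 with most footprints per length, and the 2 highest and 2 lowest ratios at 35 °C. Members, lists and rules were chosen with earlier results of these data known. Gene lists and markers could not be evaluated without names.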

Additional observations from a re-analysis of the deposited data

How the results depend on the processing

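The higher ratio of short groups kept its direction under every alternative run. The difference at 35 °C (0.70) was 0.77 with a length limit of 75 and 0.53 with 150. In warmed cells (0.61) it was 0.68, 0.50 and, with at least 50 counts, 0.66. Leaving out 1 number gave 0.68 to 0.74 and 0.61 to 0.63. The median footprint change (0.00042) was -0.018 with TMM, the opposite sign, 0.018 with at least 50 counts, 0.021 with a limit of 75 and 0.020 with 150. Shares over all member IDs were 1.50% and 1.57% of RNA and 2.05% and 2.05% of footprints at 35 °C and warm, and without a minimum 1.55%, 1.63%, 2.12% and 2.12%.

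Calls without a block (0 in RNA and in footprints) were 1 and 1 by DESeq2 and 9 and 26 with the replicate block. With the block, DESeq2 gave 2 and 6, and leaving out 1 number gave 2 to 15 in RNA and 30 to 42 in footprints. Footprint calls were 45 (7.89%) with no count filter and 44 (7.72%) with numbers 2 and 3 summed, against 6.59% and 6.02% of all groups. Ratio calls were 0 under every alternative run. Of the values of named IDs, the RNA change of uc057ceh.1 was 0.010 with the block and without number 2. The ratio change of uc009agj.1 was -0.068 and -0.054 without number 3, and that of uc009qcf.2 was 0.11 and 0.11 without number 1, with the block. The cause of these shifts was not tested. An adjusted p that DESeq2 left empty was counted as no call. Depth limits single values: 301 short groups had fewer than 50 counts in some RNA library and 223 in some footprint library.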

Other observations

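A set of IDs of listed length 94 had near-identical counts at separate positions in the files. uc007prf.2 and uc007ptv.3 stand 164 rows apart, and their counts lay within 1.06 times of each other in every library. Their footprint levels at 35 °C were 377 ± 115 and 383 ± 108 CPM per 100 units of listed length (SD, n = 3), with log2 ratios of 1.55 ± 0.21 and 1.52 ± 0.21. They were chosen after their values had been seen. Reads of such IDs cannot be assigned to one of them, and both were counted among the 10 groups with most footprint counts.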
